A study of Mus musculus with 2 samples.

Results

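The miR-23, miR-27 and miR-24 families are made from 6 mouse hairpins that lie in 2 paralogous clusters, Mir23a, Mir27a and Mir24-2 on chromosome 8 and Mir23b, Mir27b and Mir24-1 on chromosome 13. Their reads were taken from small RNA libraries of J1 cells, a mouse embryonic stem (ES) cell line grown on gelatin with LIF, which received either 1 mM AICAR, a compound that enters cells and activates the energy sensor AMPK, or the same volume of the solvent DMSO without it (0 mM AICAR), both for 24 h. The members were all sequence tags (distinct read sequences with their read counts) that match the 6 hairpins of the GENCODE annotation without a mismatch, which gave 118 tags out of all tags on 1174 hairpins. None of these tags matched any other miRNA hairpin. There was 1 library per condition, so no difference below has a replicate check, and all intervals are exact 95% intervals of the read counts (binomial for fold changes and shares) that cover counting error only. PCR reads without molecular identifiers are not independent molecules.

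Each cluster is made as a hairpin transcript that Drosha and Dicer cut into short duplexes, of which a 5p and a 3p strand can be loaded into Argonaute. The seed, bases 2 to 8 of the miRNA, sets most of its target choice, so paralogs with the same seed are expected to share most targets. As background, miR-23a and miR-23b are known to repress glutaminase, miR-27 is known as a brake on adipocyte formation through Pparg, and miR-24 is known to repress the cell cycle regulators E2f2 and Myc.

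The mature sequences show which arms can be divided between the clusters. They come from RefSeq on build GRCm38.p6, and the seed is in capitals. The entries used held no mature sequence for miR-23b-3p, so that arm is shown only by its tag further below.
miR-23a-3p: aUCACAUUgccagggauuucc
miR-27a-3p: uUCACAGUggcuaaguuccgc
miR-27b-3p: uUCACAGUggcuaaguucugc
miR-24-3p: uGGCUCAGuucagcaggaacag
miR-23a-5p: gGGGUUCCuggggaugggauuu
miR-23b-5p: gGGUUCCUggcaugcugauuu
miR-27a-5p: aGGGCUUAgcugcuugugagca
miR-27b-5p: aGAGCUUAgcugauuggugaac
miR-24-2-5p: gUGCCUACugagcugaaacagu
miR-24-1-5p: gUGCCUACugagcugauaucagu
The 3p arms of miR-27a and miR-27b carry the same seed, UCACAGU, and miR-24-3p is the same molecule in both clusters. The 5p arms of miR-23 and miR-27 differ between the paralogs within the seed, whereas miR-24-2-5p and miR-24-1-5p share it.

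Abundant tags of the libraries show the base that separates the 3p arms, here in capitals. They are the specific tags with the most reads over both libraries, except for miR-27b-3p, whose tag of 21 nt is set beside that of miR-27a-3p, and the last is the tag that fits both copies.
miR-23a-3p: atcacattgccagggattTcca
miR-23b-3p: atcacattgccagggattAccac
miR-27a-3p: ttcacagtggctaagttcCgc
miR-27b-3p: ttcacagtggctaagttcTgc
miR-27a-3p or miR-27b-3p: ttcacagtggctaagttc
Counted from 1 at the 5′ end of the tag, miR-23a-3p and miR-23b-3p first differ by T19A and miR-27a-3p and miR-27b-3p by C19T. A tag of 18 nt that starts at the first base therefore fits both copies, and 18 nt was the shortest length kept in the libraries. The most abundant tags of miR-24-3p and of the 5p strands of Mir23a, Mir27a, Mir24-1 and Mir24-2 have the letters of the mature sequences above. Tags that match only 1 of the paralog hairpins are called specific below, and the others are called shared.

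On build GRCm38, the chromosome 8 hairpins lie on the plus strand at chr8:84208518-84208592 (Mir23a), chr8:84208672-84208758 (Mir27a) and chr8:84208815-84208921 (Mir24-2), within 404 nt. Mir23a and Mir27a overlap no other annotated gene, and Mir24-2 shares 2 nt with the long non-coding RNA Gm26532. The chromosome 13 hairpins lie on the plus strand at chr13:63300484-63300557 (Mir23b), chr13:63300712-63300784 (Mir27b) and chr13:63301208-63301275 (Mir24-1), within 792 nt. They sit inside the protein-coding gene 2010111I01Rik on its own strand, Mir23b in an intron, and Mir27b and Mir24-1 in exons of non-coding or nonsense-mediated decay transcripts of it. The gene Fancc runs over all of them on the opposite strand, where they are intronic.

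The DMSO library held 18870345 clean reads and the AICAR library 21091226, so 1 read was worth 0.0530 and 0.0474 RPM (clean reads scaled to a library of 1000000). Hairpin reads were 11.56% of the DMSO and 15.72% of the AICAR library, and 9.49% and 3.81% of them were shorter than 21 nt. The libraries thus differed in both the share and the length of miRNA reads. Fold changes below are ratios of RPM, AICAR over DMSO, and any between 1 and 1.36 falls below 1 when reads are set against hairpin reads instead. The miR-290 cluster, a hallmark of mouse ES cells, was present at 33347 RPM in DMSO and 57828 RPM in AICAR.

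The members held 17427 reads with DMSO and 26046 with AICAR, 0.799% and 0.786% of all hairpin reads. Specific tags made up 60.7% of the member reads in DMSO and 76.0% in AICAR. Shared tags were 6842 and 6241 reads. Of these, miR-24-3p had 3387 and 4563, the shared miR-27-3p tags 3453 and 1672, and the shared miR-23 tags 2 and 6 reads. The specific tags of the chromosome 8 cluster had 275 RPM in DMSO and 617 in AICAR, a fold change of 2.24 (2.17 to 2.32). Those of the chromosome 13 cluster had 286 and 322 RPM, a fold change of 1.13 (1.09 to 1.17) that is below 1 relative to hairpin reads. Over all lengths, the 2 clusters thus gave nearly equal specific reads in DMSO, and the chromosome 8 cluster gave more than the chromosome 13 cluster in AICAR. These values depended on tag length. From 21 nt on, chromosome 8 had 251 RPM and chromosome 13 217 RPM in DMSO, with fold changes of 2.34 (2.26 to 2.42) and 1.31 (1.26 to 1.36). At 18 to 20 nt the fold changes were 1.26 (1.11 to 1.42) for chromosome 8 and 0.557 (0.510 to 0.609) for chromosome 13. MiR-23a-3p alone held 4821 of the 5193 specific chromosome 8 reads in DMSO and 12520 of the 13020 in AICAR. These totals leave out miR-24-3p and the shared miR-27-3p tags, so they are not the full output of a cluster.

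By specific reads that match in full, miR-23a-3p was the most abundant arm of either cluster, with 4821 reads (255 RPM) in DMSO and 12520 (594 RPM) in AICAR. Its fold change was 2.32 (2.25 to 2.40). Relative to hairpin reads instead of clean reads it was 1.71, still higher in AICAR but under 2. MiR-23b-3p, which carries the same first bases and seed, had 2398 reads (127 RPM) and 4174 (198 RPM), a fold change of 1.56 (1.48 to 1.64). Both miR-23 guide strands were therefore higher in AICAR, the chromosome 8 copy by more.

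MiR-24-3p had 3387 reads (179 RPM) in DMSO and 4563 (216 RPM) in AICAR, a fold change of 1.21 (1.15 to 1.26) that turned to 0.886 relative to hairpin reads. Since Mir24-1 and Mir24-2 give the same 3p molecule, these reads cannot be divided between the clusters.

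The specific reads of miR-27-3p were fewer. MiR-27a-3p had 215 reads (11.4 RPM) in DMSO and 281 (13.3 RPM) in AICAR, and its fold change of 1.17 had an interval that included 1 (0.976 to 1.40) and was 0.860 relative to hairpin reads. MiR-27b-3p had 1135 reads (60.1 RPM) and 902 (42.8 RPM), a fold change of 0.711 (0.651 to 0.777). Both values depended on the tag length, as described below.

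The 5p strands of the chromosome 8 cluster were rare. MiR-23a-5p had 114 reads in DMSO and 151 in AICAR (fold change 1.19, 0.923 to 1.52, and 0.871 relative to hairpin reads), and miR-27a-5p 12 and 21 reads, under 1 RPM in both libraries. MiR-24-2-5p, the only strand that reports on Mir24-2 alone, rested on 14 reads in DMSO and 33 in AICAR, and its fold change was 2.11 (1.10 to 4.27), but 1.55 (0.808 to 3.14) relative to hairpin reads. On chromosome 13, miR-23b-5p had 917 and 976 reads (0.952, 0.869 to 1.04), and miR-27b-5p had 935 and 722 (0.691, 0.626 to 0.762). MiR-24-1-5p had 3 and 2 reads, at the limit of 3 reads, so Mir24-1 could not be followed at this depth.

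**Figure D1:**
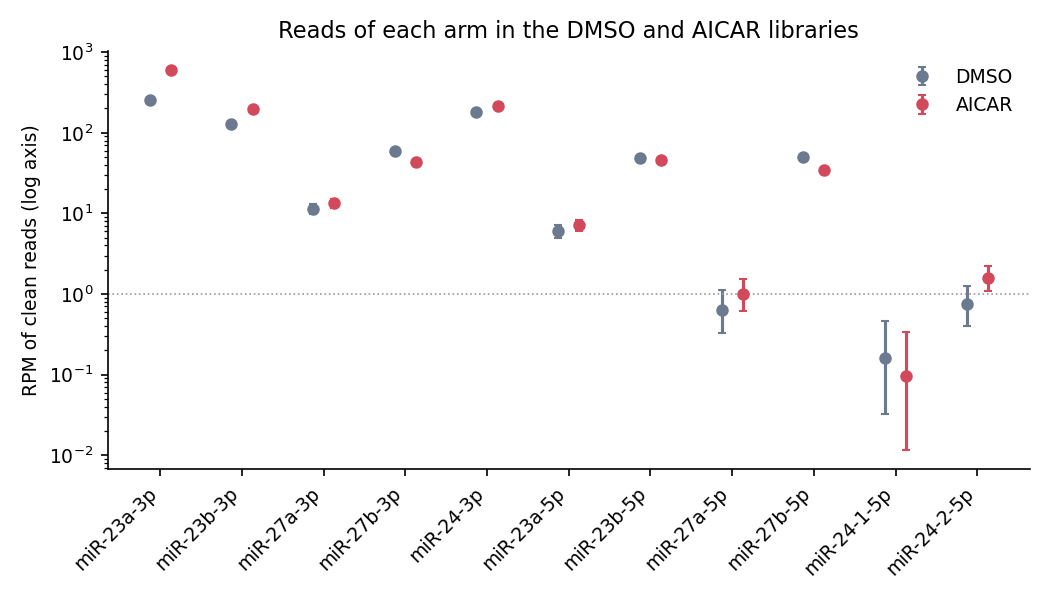
RPM of clean reads on a log axis for the specific tags of each arm (miR-24-3p: all its tags, from both copies), with 1 point per library and 95% Poisson intervals for counting error. MiR-23a-3p is the highest arm in both libraries, at 255 and 594 RPM, and the dotted line marks 1 RPM.

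Of the 11 arms, 9 reached 1 RPM in at least 1 library. Among those 9, the fold change was at least 2 for 2 arms, miR-23a-3p and miR-24-2-5p, against 11.8% of the 500 arms of other hairpins that reached the same level. MiR-24-2-5p reached 1 RPM only in AICAR, at 0.742 RPM in DMSO and 1.56 RPM in AICAR. It was thus kept only through the library where it was higher, and its place in this count carries no weight of its own. No arm of the 9 was at 0.5 or below by its specific tags, and 1, miR-27a-3p, was with shared tags added, against 10.2% of the other arms, for which shared tags were counted in full. The median fold change was 1.19 for the 9 arms and 1.10 for the other 500. The members as a set were thus spread around the middle of the other arms, with miR-23a-3p near the upper end, since 37 of the 500 had a larger fold change.

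**Figure D2:**
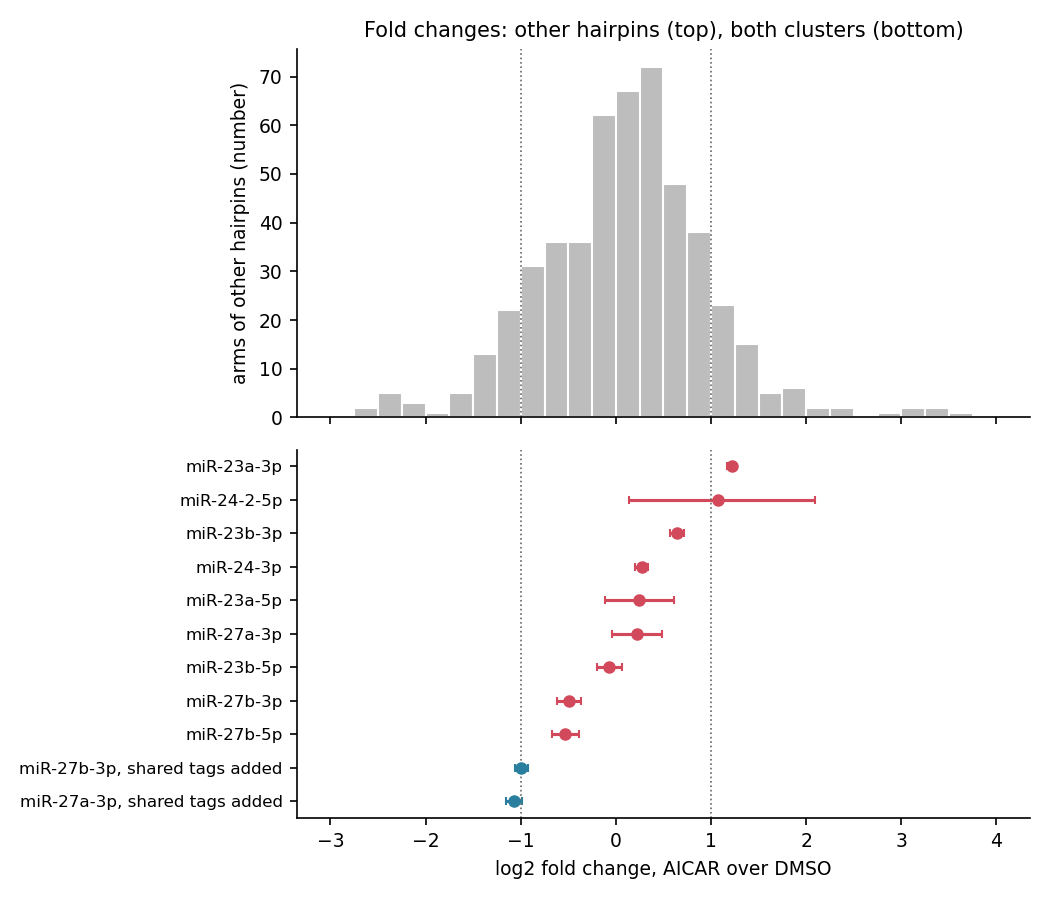
Log2 fold change, AICAR over DMSO, of 500 arms of other hairpins as a histogram (top), and of the 9 arms of the clusters with at least 1 RPM by specific tags (red) and with shared tags added for miR-27-3p (blue), with 95% exact binomial intervals (bottom). The dotted lines mark fold changes of 0.5 and 2. MiR-23a-3p and miR-24-2-5p lie above 2 and miR-27b-5p is the lowest by specific tags.

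MiR-27-3p was mostly short. Its tag of 18 nt, shown above, had 3432 reads in DMSO and 1660 in AICAR, more than all specific miR-27-3p reads together. By reads over both libraries it ranked 3 among the 634 hairpin tags of 18 nt. Tags of 18 to 20 nt were 91.5% of all miR-27-3p reads in DMSO and 77.7% in AICAR.

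The fold change of miR-27-3p changed sides with length. The tags of 18 nt had 3434 reads in DMSO and 1664 in AICAR, a fold change of 0.434 (0.409 to 0.460), and those of 19 nt 816 and 436 reads, a fold change of 0.478 (0.425 to 0.538). At 21 nt, the length of the annotated mature strands, there were 354 reads (18.8 RPM) in DMSO and 581 (27.5 RPM) in AICAR, a fold change of 1.47 (1.28 to 1.68). Both copies were higher at 21 nt by clean reads, with 92 and 191 reads for miR-27a-3p (1.86, 1.44 to 2.41) and 262 and 390 for miR-27b-3p (1.33, 1.14 to 1.56, which is below 1 relative to hairpin reads). Adding the shared tags in full to each copy gave fold changes of 0.476 for miR-27a-3p and 0.502 for miR-27b-3p, because the shared tags were then 94.1% and 75.3% of their DMSO reads. MiR-27a-3p was thus lower in AICAR when the tag that fits both copies was counted. Without that tag no direction was settled, at 1.17 (0.976 to 1.40) by clean reads and 0.860 relative to hairpin reads. By length, its specific tags had 0.667 (0.495 to 0.896) at 20 nt and 1.86 at 21 nt.

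**Figure D3:**
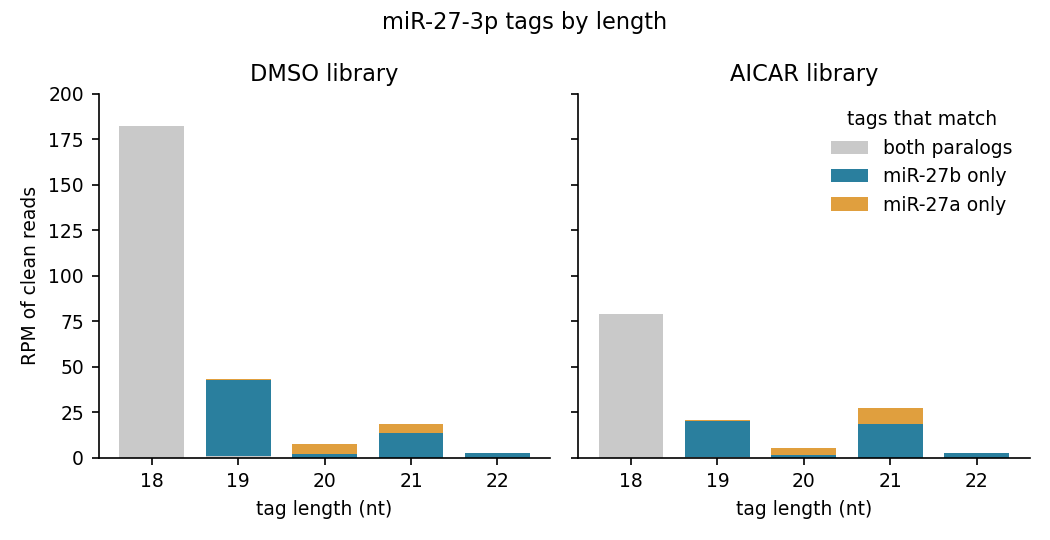
RPM of clean reads of miR-27-3p tags by tag length in each library, stacked by the hairpins the tags match. The tags of 18 nt, which fit both paralogs, are the tallest bar in both libraries and stand at 78.9 RPM in AICAR, under the level in DMSO, whereas the bar at 21 nt goes from 18.8 to 27.5 RPM.

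The other abundant short forms, with the base at position 19 in capitals, were a miR-27b-3p tag of 19 nt and a miR-27a-3p tag of 20 nt.
miR-27b-3p, 19 nt: ttcacagtggctaagttcT
miR-27a-3p, 20 nt: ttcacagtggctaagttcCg
Among tags of 19 nt, the base after the shared 18 nt was T, as in Mir27b, in 783 reads in DMSO and 421 in AICAR, and C, as in Mir27a, in 13 and 7 reads. At 20 nt the C form led, with 110 and 82 reads against 30 and 37, and at 21 nt the T form, with 261 and 390 reads against 92 and 190. A shared tag with a U added after transcription has the same letters as the miR-27b tag of 19 nt, and the 2 cannot be told apart. Counted only from 20 nt on, miR-27b-3p had 351 reads in DMSO and 481 in AICAR, a fold change of 1.23 (1.07 to 1.41) in place of 0.711, a limit chosen after the data were seen. The value of miR-27b-3p below 1 thus rested on the 19 nt tag, although relative to hairpin reads it was below 1 from 20 nt on as well.

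The libraries as a whole had a similar order from 18 to 21 nt. Over the pooled reads of all other hairpins, the fold change was 0.438 at 18 nt, 0.428 at 19 nt and 0.668 at 20 nt. It was 1.01 at 21 nt, 1.46 at 22 nt and 1.57 at 23 nt. Abundant hairpins weigh most in these pooled values. The shared miR-27 tag held 9.24% of the 18 nt hairpin reads in DMSO and 9.14% in AICAR, nearly the same share of its length class. At 22 nt miR-27-3p did not follow the pooled other hairpins, with 54 and 55 reads and a fold change of 0.911 (0.614 to 1.35).

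Longer tags had larger fold changes in other arms of the clusters too. The mean tag length was longer in AICAR for all 8 arms with at least 100 reads in each library, by 0.00755 to 0.675 nt, as it was for 86.7% of 286 other arms. The fold change of tags of 21 nt and over was above that of shorter tags in 7 of the 7 arms with at least 20 reads in each class over both libraries, as in 93.1% of 233 other arms. For miR-27b-5p the fold change ran from 0.260 (0.194 to 0.344) at 20 nt to 1.35 (1.13 to 1.63) at 23 nt, on 224 and 65 reads and on 197 and 298 reads, so its short and long forms lay on different sides of 1 by clean reads, though not relative to hairpin reads. The main tags of these lengths differ at the 3′ end only.
miR-27b-5p, 20 nt: agagcttagctgattggtga
miR-27b-5p, 23 nt: agagcttagctgattggtgaaca
For miR-23a-3p it ran from 1.52 (1.30 to 1.78) at 20 nt over 2.35 (2.25 to 2.46) at 22 nt to 3.14 (2.91 to 3.39) at 23 nt. Every length of miR-23a-3p from 19 to 23 nt was higher in AICAR. Each had a larger fold change than the pooled reads of other hairpins at that length. MiR-24-3p had 88.5% and 89.7% of its reads that match in full at 22 nt. Its fold change there was 1.22 (1.17 to 1.28), below the 1.46 of the pooled reads of other hairpins. Counted by arm the order was different. Over all lengths, miR-24-3p had 1.21, above the median of 1.10 of the 500 other arms, of which 212 had a larger fold change. These values leave out reads that end in bases the hairpin does not hold, described below. Such reads were 46.2% of miR-24-3p in DMSO and 56.0% in AICAR, and with them its fold change over all lengths was 1.47. The part of read length in these differences was not tested.

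**Figure D4:**
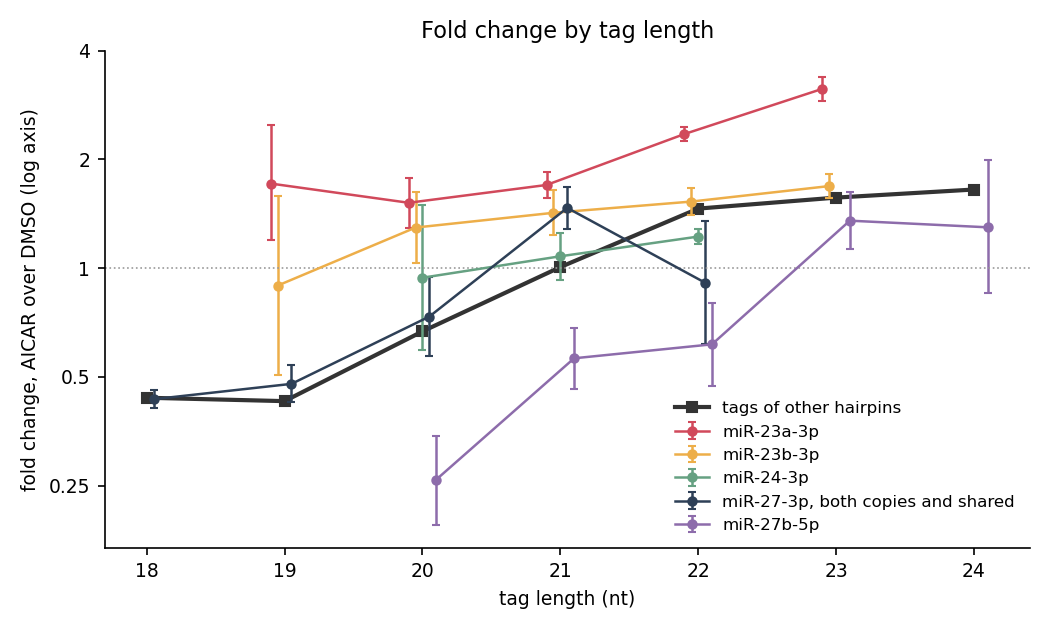
Fold change, AICAR over DMSO, on a log axis by tag length for 5 arms of the clusters with 95% exact binomial intervals (lengths with at least 50 reads over both libraries) and for all tags of other hairpins (black squares, no interval drawn). The line of the other hairpins climbs from 0.438 at 18 nt to 1.65 at 24 nt, miR-27-3p lies close to it at 18 to 20 nt, and miR-23a-3p lies above it at each plotted length.

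The share of a family's specific reads that came from the chromosome 8 copy does not depend on library depth. For miR-23-3p it was 66.8% (65.7 to 67.9) in DMSO and 75.0% (74.3 to 75.7) in AICAR, an odds ratio of 1.49 (1.40 to 1.59). It was higher in AICAR at every length from 19 to 23 nt, with the widest gap at 23 nt, 45.2% against 60.5%. The intervals of the odds ratio at 19 and 20 nt included 1.

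For miR-27-3p the share of miR-27a was 15.9% in DMSO and 23.8% in AICAR, an odds ratio of 1.64 (1.34 to 2.02). This shift depended on which tag lengths were counted. From 20 nt on, the share was 36.5% (32.5 to 40.7) and 36.3% (32.9 to 39.8), an odds ratio of 0.990 (0.783 to 1.25). At 20 nt alone it was 75.9% and 68.9%, and at 21 nt 26.0% and 32.9%, with an odds ratio of 1.39 (1.03 to 1.90). No direction for the miR-27 pair held over all lengths.

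Among the 5p strands, miR-23a-5p was 11.1% of the miR-23-5p reads in DMSO and 13.4% in AICAR, an odds ratio of 1.24 whose interval included 1 (0.953 to 1.63). MiR-27a-5p was 1.27% and 2.83% of the miR-27-5p reads, an odds ratio of 2.27 (1.06 to 5.09), but 1.84 (0.859 to 4.15) from 21 nt on. MiR-24-2-5p was 82.4% and 94.3% of 17 and 35 miR-24-5p reads, an odds ratio of 3.44 that these counts left between 0.354 and 45.4.

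**Figure D5:**
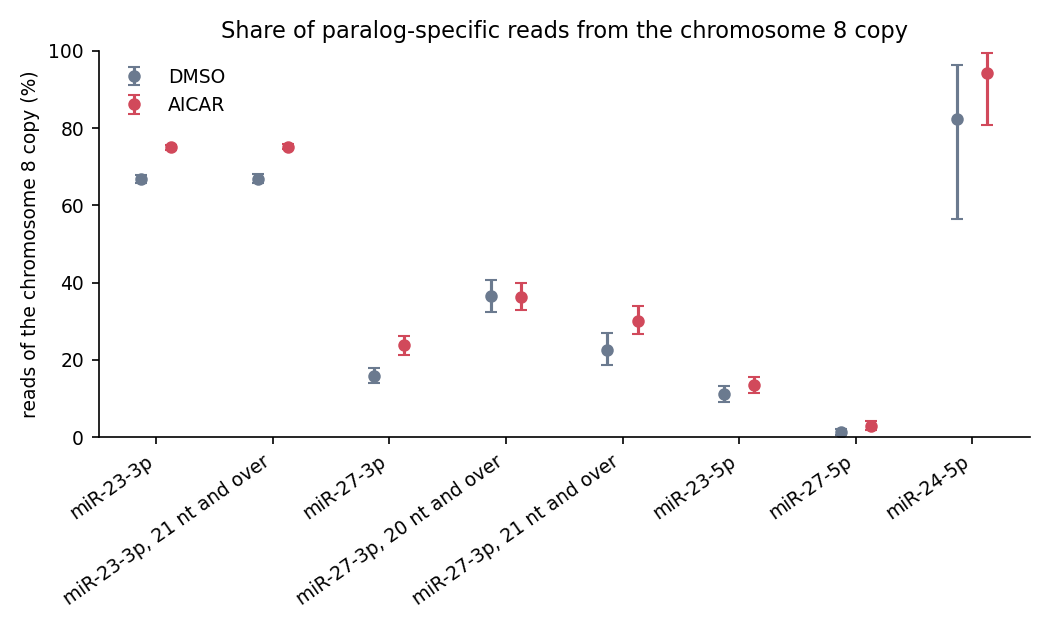
Percent of specific reads that came from the chromosome 8 copy in each family and arm, with 95% exact binomial intervals. MiR-23-3p goes from 66.8% to 75.0% with intervals apart, and the gap of miR-27-3p is gone from 20 nt on and present again from 21 nt on, at 22.5% and 30.2%.

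The hairpins used their arms differently. Mir23a gave 42.3 reads of its 3p strand for each 5p read in DMSO and 82.9 in AICAR, a ratio of ratios of 1.96 (1.52 to 2.52). Mir23b gave 2.62 and 4.28, a ratio of 1.64 (1.47 to 1.82). Mir27a, with only 12 and 21 reads of its 5p strand, gave 17.9 and 13.4 by specific tags, a ratio of 0.747 (0.327 to 1.63). With shared tags added it gave 306 and 93. Mir27b gave its 3p and 5p strands at nearly the same level by specific tags, 1.21 and 1.25, a ratio of 1.03 (0.901 to 1.18). The ratio of the more abundant to the other arm was higher in AICAR in 3 of the 3 member hairpins with at least 100 reads on each arm in each library, against 53.4% of 73 other hairpins. With shared tags added, as they were for the other hairpins, Mir27b gave 4.91 and 3.57, so the ratio was higher in 2 of the 3. For Mir23a, 7 of the 73 had a higher ratio of ratios and for Mir23b 13, with falls in the ratio not ranked by size.

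The 5′ ends, which set the seed, were nearly fixed on the 3p strands. MiR-23a-3p began at its main start in 97.2% of DMSO and 97.7% of AICAR reads, and miR-24-3p in 99.2% of both. MiR-23b-5p was the most varied of the arms with at least 100 reads, and 15.9% and 13.5% of its reads began 1 nt upstream, which moves the seed.
miR-23b-5p, main start: gGGTTCCTggcatgctgattt
miR-23b-5p, 1 nt upstream: tGGGTTCCtggcatgctgattt
The seed is in capitals, and the shifted seed of miR-23b-5p is the letters GGGTTCC, which are those of the miR-23a-5p seed.

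Reads that match an arm and then end in 1 to 3 bases that the hairpin does not hold were counted apart, as 3′ tails. MiR-24-3p carried them most often, in 2908 reads (46.2%) in DMSO and 5808 (56.0%) in AICAR, and 13 of 286 other arms had a larger percent in each library. Of these tailed reads, 2576 and 5102 ended in U alone. The main form had 2188 reads in DMSO and 4116 in AICAR, and is shown with the tail in capitals.
miR-24-3p, tailed: tggctcagttcagcaggaacagT
The fold change of tailed miR-24-3p was 1.79 (1.71 to 1.87), against 1.21 for the reads without a tail. The main tailed form is 23 nt long and the main form without a tail 22 nt. The pooled reads of other hairpins had fold changes of 1.57 at 23 nt and 1.46 at 22 nt, and the part of length in the gap was not tested. MiR-23b-3p was tailed in 38.1% and 42.2% of its reads and miR-23a-3p in 14.3% and 18.1%. The percent with a tail was higher in AICAR in 7 of the 8 arms with at least 100 reads in each library, against 77.6% of 286 other arms. The shared miR-27-3p tags had 4 and 3 tailed reads, 0.116% and 0.179%, a count that cannot include tails that begin with U, since those match Mir27b. A sequencing error in the last base looks the same as a tail, and its part was not tested.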

How the data were processed

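Small RNA of 18 to 30 nt from J1 cells was sequenced, 1 library per condition. The authors removed low-quality and adaptor reads and those under 18 nt, collapsed the rest, and deposited the read counts of each tag with its length and sequence, unaligned and not normalized. The submitters' notes name mm9, and coordinates here are those of GRCm38 instead. The control is titled J1_U and labelled DMSO, and was taken as the DMSO library.

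Tags were matched without mismatch to 1174 hairpins of GENCODE vM21 whose symbol starts with Mir. Genome matches were not used here. An arm is the side of the hairpin that holds the centre of the tag. A tag was counted when its ends lay within 2 nt (5′) and 4 nt (3′) of those of a reference tag, the specific tag of the arm with the most reads (for miR-24-3p, any tag). The specific tag was used because the most abundant tag of miR-27a-3p and miR-27b-3p is shared. The 10 tags, with 21 and 23 reads, that lay outside these limits were left out. Levels are RPM of clean reads. Fold changes are ratios of RPM with conditional exact binomial intervals, shares have Clopper-Pearson intervals and odds ratios conditional exact ones. No test was run, since libraries and not conditions would be compared. The fold limits of 2 and 0.5 are those of the study's methods. Other arms were counted within the same end limits, but with tags that fit several counted in full for each, unlike the specific tags of the members.

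The 6 hairpins, the lists and the limits were chosen with earlier results of these data known. All 6 hairpins and every arm with reads are named. Alternatives were other denominators (hairpin reads, TMM, median-ratio), other tag ends and lengths, tails and shared tags. The calculation was run on simulated data for AICAR against DMSO over 261 arms. There, 200 of 200 changed arms had the right direction and 247 intervals (94.6%) held the true fold change. This checked the arithmetic only, since simulated reads cannot show how cultures, library preparations or PCR vary. It does not show that the smaller fold changes reported here would keep their direction in other libraries. The tools were Python (3.11.15), its packages scipy (1.17.1), numpy (2.4.6) and, for plots, matplotlib (3.10.9), and edgeR (4.0.16) under R (4.3.3) for the TMM factors only.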

Additional observations from a re-analysis of the deposited data

How the results depend on the processing

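With 1 library per condition, intervals hold counting error only, and a difference between cultures, library preparations or size selections cannot be told apart from one between treatments. The miRNA share and the tag lengths differed between the libraries, so fold changes moved with the denominator: relative to hairpin reads, the median log2 fold change of the other arms went from 0.13 to -0.31, a shift of -0.44. Relative to hairpin reads the fold change was 1.71 for miR-23a-3p, 1.15 for miR-23b-3p, 0.860 for miR-27a-3p, 0.523 for miR-27b-3p and 0.886 for miR-24-3p. With TMM it was 2.07, 1.39 and 1.08 for miR-23a-3p, miR-23b-3p and miR-24-3p and 0.634 for miR-27b-3p, and with median-ratio scaling 2.19, 1.47 and 1.13 for the first 3 of these. By the reference tag alone it was 1.70 for miR-23b-3p, 1.85 for miR-27a-3p and 0.481 for miR-27b-3p. From 21 nt on, miR-27a-3p had 1.87 and miR-27b-3p 1.26, and from 20 nt on (chosen after seeing the data) miR-27b-3p had 1.23. With shared tags, miR-27a-3p had 0.476 and miR-27b-3p 0.502. With tailed tags, miR-24-3p passed miR-23a-3p in DMSO, with 6295 against 5628 reads, and miR-23a-3p had a fold change of 2.43, miR-23b-3p 1.67 and miR-24-3p 1.47. The number of arms at 2 or above was 0 relative to hairpin reads and 1 with TMM, median-ratio scaling or the reference tag alone, and the number at 0.5 or below was 1 with the reference tag alone or shared tags. The miR-23a share in DMSO and AICAR was 73.2% and 79.2% by reference tags and 59.2% and 67.9% with tails. The miR-27a share was 10.5% and 31.1% by reference tags, 22.5% and 30.2% from 21 nt on, 36.5% and 36.3% from 20 nt on, and 18.7% and 29.3% with tails. MiR-23a-3p and the miR-23a share were higher in AICAR under each of these settings. Of 60 values of the 6 arms on the 5p side under alternatives, 53 lay inside the interval of the main value and 7 outside. All 7 came from miR-23a-5p, miR-23b-5p and miR-27b-5p. The intervals of miR-27a-5p, miR-24-1-5p and miR-24-2-5p rested on few reads and were wide, so values inside them do not show stability. Adding shared tags changed none of the 5p arms. Among the 7 were miR-27b-5p, which turned to 1.36 (1.13 to 1.64) by the reference tag alone, and miR-23b-5p at 0.700 (0.639 to 0.767) relative to hairpin reads. MiR-24-2-5p lost its fold change of 2 with TMM, at 1.88 (0.980 to 3.81), with median-ratio scaling, at 1.98, and by the reference tag alone, at 1.79, as well as relative to hairpin reads. Among other arms, 59 were at 2 or above and 51 at 0.5 or below, against 24 and 111 relative to hairpin reads, 22 and 25 from 10 RPM on, 273 and 228 from 1 read on, and 33 at 0.5 or below from 21 nt on. The cause of these moves was not tested. No paired analysis was possible because each condition has 1 library.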

Other observations

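Tags that match the strand opposite to the hairpins were rare. Opposite Mir24-2 there were 2 reads in DMSO and 5 in AICAR, and opposite Mir24-1 11 and 17 reads, where the annotation places the hairpins Mir3074-2 and Mir3074-1. The other 4 hairpins had 0 reads on the opposite strand in both libraries.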
